A study of Rattus norvegicus with 13 samples.

Results

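A set of 10 basement membrane genes was taken by name from the RNA-Seq table of the newborn rat ventricular zone (VZ): the Fraser complex genes *Fras1*, *Frem1* and *Frem2*, perlecan (*Hspg2*), the nidogens *Nid1* and *Nid2*, agrin (*Agrn*), and the collagen IV chains *Col4a1*, *Col4a2* and *Col4a6*. Of these 10 names, 9 were found, each in 1 of the 14716 rows, and *Hspg2* is not analysed here. All 9 rows passed the filter on low values (a mean of at least 10 normalized counts). The samples were 7 control and 6 PTU exposed male Long Evans pups on postnatal day 2, 1 pup from each litter. PTU (6-propyl-2-thiouracil) blocks thyroid hormone synthesis, and dams drank it at 3 ppm in deionized water or drank the water alone. The VZ was cut by laser from both hemispheres as the pseudostratified epithelium of the posterior ventricle. Each library is thus a bulk sample, in which fewer cells of a type and less RNA per cell cannot be told apart. The study reports some degradation of the RNA from these captures, and its part in the levels was not tested.

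The basement membrane is a thin sheet of matrix at the base of epithelia, around blood vessels and at the pial surface of the brain. Collagen IV trimers and laminins each form a network, nidogens and heparan sulfate proteoglycans (perlecan and agrin) link them, and cells bind the sheet through integrins and dystroglycan. FRAS1, FREM1 and FREM2 form a complex below epithelia that holds them to the underlying tissue, and its loss causes blistering in the embryo. In the brain, collagen IV of the α1 and α2 chains is best known from vessels and meninges, while radial glia, the progenitors of the VZ, touch the basement membrane with their end feet at the pia and at vessels.

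The values are the authors' normalized counts, that is, estimated reads per transcript divided by a size factor for each pup. From the step between low values, the reads behind them were estimated at 22287025 to 44379758 per pup (median 35206428), with no difference in depth between groups that the test could show (exact permutation test, two-sided, p = 0.912). Radial glia markers were abundant in every pup, with summed levels over 11 transcripts of 72690 to 120014 normalized counts. By the study's account choroid plexus cells were not part of the captured tissue, yet markers of choroid plexus epithelium were present in every pup: 13 of 14 were tested, none was at 0 in any pup, and their summed level was 52968 to 148671 normalized counts in controls and 24769 to 106683 in PTU exposed pups. *Ttr*, the thyroid hormone carrier that defines this epithelium, averaged 91587 ± 25254 normalized counts (SD) among the 7 controls and 51490 ± 22179 (SD) among the 6 PTU exposed pups.

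All 9 members had a lower fitted level in PTU exposed pups, with log2 fold changes of -0.68 to -0.03 on the log2(normalized count + 1) scale, where 49.3% of all 14606 tested rows were lower. When all pups were given 1 common total, the median of all rows moved to 0.20, and *Agrn*, *Col4a1* and *Col4a2* turned to 0.17, 0.087 and 0.059, which is below that median. The log2 fold changes of the members that stayed lower were then -0.48 for *Frem1*, -0.33 for *Col4a6*, -0.24 for *Frem2*, -0.18 for *Fras1*, -0.15 for *Nid1* and -0.086 for *Nid2*. None passed an adjusted p of 0.05 in limma, a linear model that shares the spread among rows, and 0% of all rows did. Without PTU pup 2, 1.23% of all rows passed and 0 of the 9 members. The study's own DESeq2 comparison of the same pups called genes at this threshold, *Frem2* and *Col4a6* among them, so the calls differ with the test. Before adjustment in limma, 5 of the 9 (*Frem1*, *Frem2*, *Fras1*, *Nid2* and *Col4a6*) were lower with p under 0.05, against 8.2% of all rows. This count was 0 of 9 under the common total in limma, where it held for 0.555% of all rows. The 3 highest rows held 23.9 to 60.1% of the total of each pup (median 50.9% in controls and 35.8% in PTU exposed pups). With the total taken over the other rows, the count was 4 of 9, with 1123 of the 14606 rows lower at that level. Every member then stayed lower, and the median of all rows was 0.0092. The count was 1 of 9 with a choroid plexus score added as covariate (*Frem2*, 6.37% of all rows) and 1 of 9 with the radial glia score (*Nid2*, 2.17%). The median difference of the 9 was -0.35 and that of all tested rows 0.00. In 0 of the 9 did the groups fail to overlap (0.26% of all rows lay lower without overlap). In 4 of the 9 (*Frem2*, *Col4a6*, *Nid1* and *Nid2*), all 6 PTU exposed pups lay below the control mean, as in 8.39% of all rows.

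**Figure D1:**
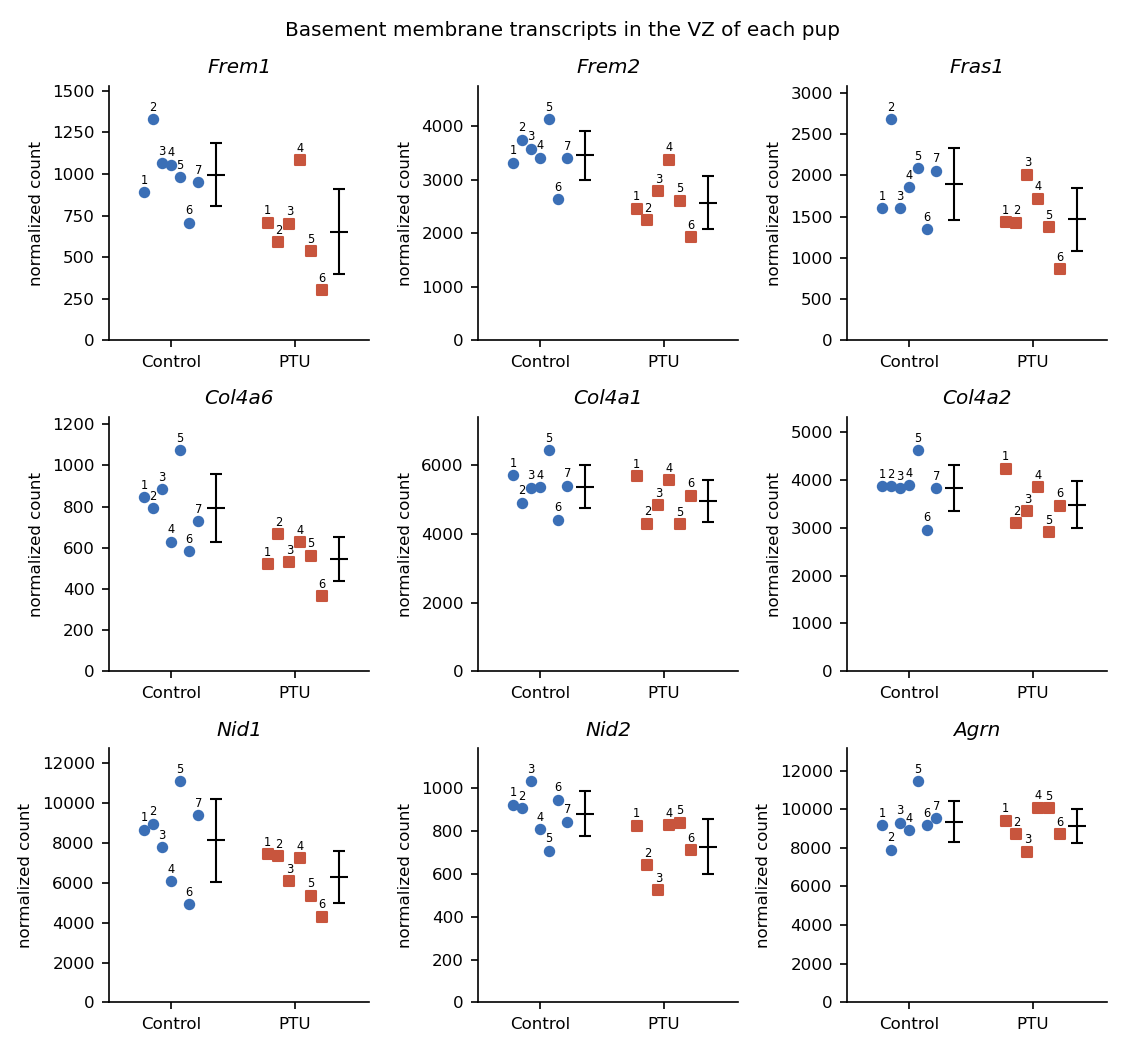
Normalized counts (vertical axes, each from 0 to its own maximum) of the 9 transcripts in each of the 7 control and 6 PTU exposed pups, with the group mean and SD. The groups overlap in every panel, least in *Frem2* and *Col4a6*, where 4 PTU exposed pups lie below the lowest control and 5 controls above the highest PTU exposed pup.

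**Figure D2:**
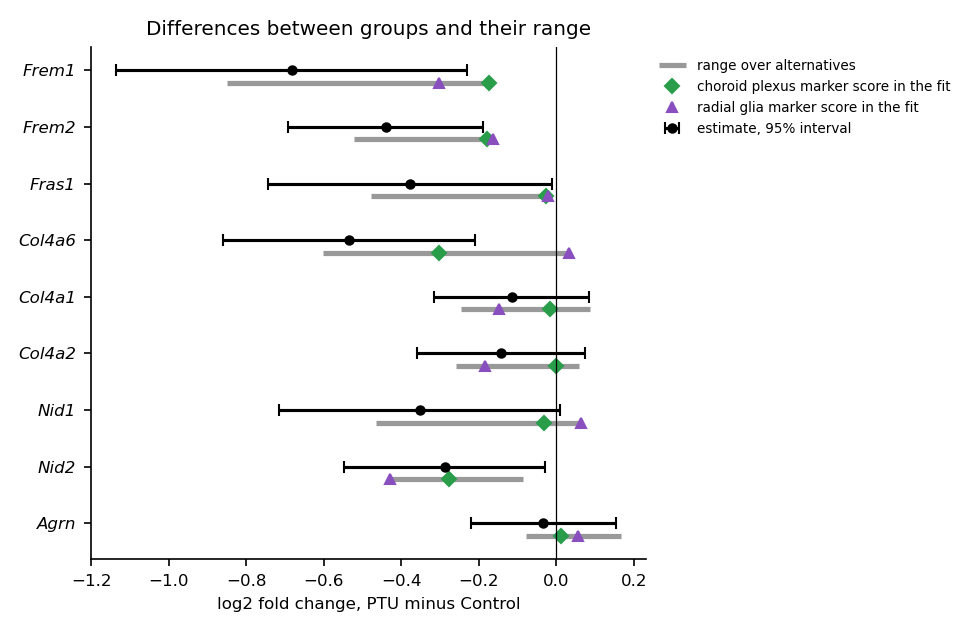
Difference between PTU exposed and control pups on the log2 scale for each of the 9 transcripts, with 95% confidence intervals from limma, the range over the alternatives (grey bars) and the values with the choroid plexus (diamonds) or radial glia (triangles) score as a covariate. All 9 points lie below 0, from -0.68 in *Frem1* to -0.03 in *Agrn*, and the bars of *Agrn*, *Col4a1*, *Col4a2*, *Col4a6* and *Nid1* cross 0.

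In the Fraser complex, *Frem1* had the largest difference of the 9. FREM1 is the secreted partner that assembles with FRAS1 and FREM2. Its normalized counts (row ENSRNOT00000078862) ran from 707 through a median of 980 to 1329 in controls, and from 302 through 647 to 1085 in PTU exposed pups. Thus 4 of 6 PTU exposed pups were below the lowest control, while PTU pup 4, at 1085, was above all controls but 1. The means were 997 ± 190 (SD, n = 7) and 654 ± 258 (SD, n = 6), a fitted level 37.7% lower (log2 fold change -0.68 ± 0.22 SE, limma adjusted p = 0.169). The unadjusted exact permutation test (two-sided) gave p = 0.0163. The spread among pups was wider after exposure, with a coefficient of variation of 39.4% against 19.1%, and this difference in spread was not tested. Without PTU pup 6, the lowest of all 13 pups, the log2 fold change was -0.48.

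*Frem2* encodes a membrane protein of the same complex. Its normalized counts (row ENSRNOT00000031487) were 2632 at the lowest, 3417 at the median and 4133 at the highest in controls, and 1935, 2536 and 3373 after PTU exposure. Apart from PTU pup 4 and PTU pup 3, at 3373 and 2787, the PTU exposed pups lay below every control, and 5 of 7 controls lay above every PTU exposed pup. The group means were 3461 ± 458 and 2570 ± 493 (SD, n = 7 and n = 6), so the fitted level was 26.3% lower, with a 95% interval of the log2 fold change from -0.69 to -0.19 (limma, adjusted p = 0.135). Its p-value ranked 196th among the 14606 rows.

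*Fras1*, the membrane protein after which the complex is named, ran from 1351 through 1860 to 2681 normalized counts in controls (row ENSRNOT00000100214). In PTU exposed pups it ran from 863 through 1430 to 2007. Only PTU pup 6 was below the lowest control. The means were 1892 ± 438 and 1469 ± 383 (SD), a log2 fold change of -0.38 ± 0.17 (SE; limma, adjusted p = 0.295; exact permutation p = 0.0845, two-sided, unadjusted). Without PTU pup 6 it was -0.23. The log2 ratio of *Frem2* to *Fras1* within a pup differed between groups by -0.06, with an interval from -0.35 to 0.23 (exact permutation test, adjusted p = 0.798 over 5 ratios).

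The 3 Fraser complex transcripts varied together among pups of the same group. With values centred within groups, Pearson's r across the 13 pups was 0.85 for *Frem1* and *Frem2*, 0.82 for *Fras1* and *Frem1*, and 0.78 for *Fras1* and *Frem2* (100000 permutations, p = 0.00199, 0.00249 and 0.00513, and 0.0224, 0.0224 and 0.0369 when adjusted over the 36 pairs of members). Spearman's rho was 0.74, 0.79 and 0.75, with adjusted permutation p of 0.116, 0.0531 and 0.0754, and r without the 2 pups farthest from the median was 0.65, 0.78 and 0.70. Many other rows varied with them as closely: *Frem2* stood 66th among all rows by its r with *Frem1*.

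The same 3 transcripts followed the choroid plexus markers. A marker score is the mean of the row-centred log2 values of a list. The choroid plexus score was lower by 0.76 in PTU exposed pups (p = 0.053 by two-sided exact permutation, and 0.179 when adjusted over 8 lists). In limma, 13 of its 13 tested transcripts had a lower fitted level, against 49.3% of all rows. Of these transcripts, 8 had an unadjusted p under 0.05, against 8.2% of all rows lower at that level. Within groups, its Pearson's r was 0.93 with *Frem1*, 0.93 with *Frem2* and 0.80 with *Fras1* (permutation tests, p = 6.0e-05, 0.00013 and 0.00441, and 0.0027, 0.0027 and 0.0397 when adjusted over 45 relations). Spearman's rho was 0.90, 0.77 and 0.81 (permutation p = 0.00016, 0.00494 and 0.00237, adjusted p = 0.0036, 0.045 and 0.0355). Leaving out the 2 pups with the most distant scores gave r of 0.87, 0.82 and 0.49, so the relation of *Fras1* was weaker without those pups. *Frem2* also had an r of 0.54 with the leptomeningeal fibroblast score (permutation p = 0.0846, adjusted p = 0.272; rho = 0.49, adjusted p = 0.391), and 0.89 without the 2 farthest pups. With the score as a covariate in limma, the log2 fold changes were -0.17 for *Frem1*, -0.18 for *Frem2* and -0.03 for *Fras1*, which is 25.5, 40.4 and 7.24% of the values without it. With the radial glia score in its place, they were -0.30 ± 0.32, -0.16 ± 0.17 and -0.02 ± 0.25 (SE). The part of choroid plexus or radial glia RNA in the group difference was not tested.

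**Figure D3:**
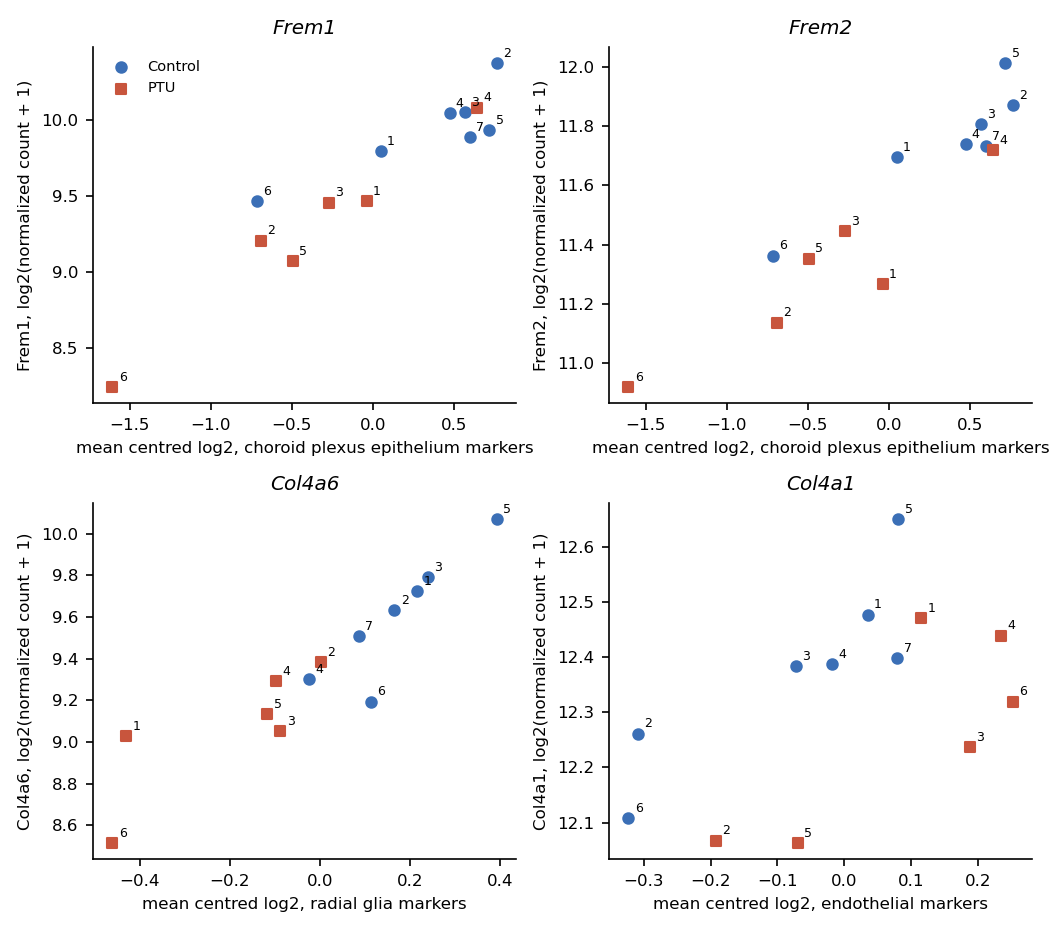
Levels of *Frem1*, *Frem2*, *Col4a6* and *Col4a1* (vertical axes, log2(normalized count + 1)) against the marker score most related to each (horizontal axes, mean centred log2 value), with 1 numbered point per pup. *Frem1* and *Frem2* climb with the choroid plexus score in both groups (r = 0.93 for each), *Col4a6* with the radial glia score (r = 0.84) and *Col4a1* with the endothelial score (r = 0.82).

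Among the 3 collagen IV chains, α6 had the largest difference. COL4A6 is built into trimers with the α5 chain, which is not analysed here, whereas α1 and α2 form the trimer found in nearly all basement membranes. *Col4a6* (row ENSRNOT00000079180) had a median of 792 normalized counts among controls and 546 among PTU exposed pups. Of the PTU exposed pups, 4 of 6 lay below the lowest control (585) and the highest, PTU pup 2 at 668, lay below 5 of 7 controls. The fitted level was 31.0% lower, with a 95% interval of the log2 fold change from -0.86 to -0.21 (limma, adjusted p = 0.148; unadjusted exact permutation p = 0.00699, two-sided). PTU pup 6, at 365, was the lowest of all 13, and without it the log2 fold change was -0.42.

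*Col4a1* (row ENSRNOT00000057386) ran from 4414 through 5357 to 6429 normalized counts in controls and from 4278 through 4969 to 5676 in PTU exposed pups. *Col4a2* (row ENSRNOT00000057461) ran from 2958 through 3868 to 4615 and from 2901 through 3402 to 4228. In both, the PTU exposed pups were spread over most of the control range. The fitted levels were 7.66% and 9.44% lower, and the exact permutation tests (two-sided, unadjusted) gave p = 0.252 and 0.207. The log2 fold change of *Col4a1* was -0.11, and -0.07 without control pup 5, and that of *Col4a2* was -0.14, with -0.09 without PTU pup 5 and -0.20 without control pup 6.

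Within pups, the log2 ratio of *Col4a6* to *Col4a1* was -2.78 ± 0.193 (SD) among the 7 controls and -3.20 ± 0.392 (SD) among the 6 PTU exposed pups. The difference was -0.42 (0.75-fold), with a 95% interval from -0.79 to -0.065 and p = 0.0245 by two-sided exact permutation (adjusted p = 0.0816 over the 5 ratios). The ratio of *Col4a6* to *Col4a2* differed by -0.39 (exact permutation p = 0.0326, adjusted p = 0.0816). Neither passed the threshold. Both did so without PTU pup 2 (adjusted p = 0.0189 for each) and without control pup 4 (adjusted p = 0.0487 for each), by exact permutation tests. Without PTU pup 6 the differences were the smallest, -0.30 and -0.28. The largest adjusted p when 1 pup was left out was 0.18 for each ratio, by the same test. The ratio of *Col4a2* to *Col4a1* differed by -0.03, with an interval from -0.11 to 0.05 (exact permutation test, adjusted p = 0.798), the narrowest of the 5. These ratios compare the groups and not the levels of the genes, since transcript lengths were not used.

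**Figure D4:**
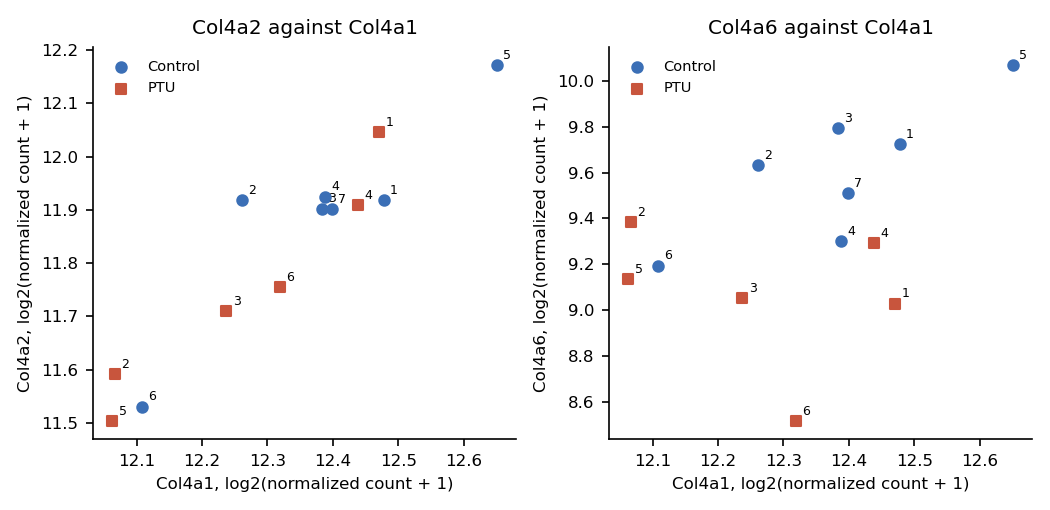
*Col4a2* (left) and *Col4a6* (right) against *Col4a1*, all as log2(normalized count + 1), with 1 numbered point per pup. The points of *Col4a2* fall along 1 line through both groups (r = 0.94 within groups), while those of *Col4a6* scatter (r = 0.29).

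*Col4a1* and *Col4a2* are neighbours that are read in opposite directions from a shared promoter, and the stretch between their starts is only 76 bases in RefSeq (build GRCr8). *Col4a5* and *Col4a6* have the same arrangement with 1414 bases between their starts. The stretch between *Col4a2* and *Col4a1* (plus strand, chr16:84885521-84885596), and the 120 bases before the starts of *Col4a6* (minus strand, chrX:109905945-109906064) and *Frem2* (minus strand, chr2:139891047-139891166), the members with the smallest p-values, are shown 5′ to 3′ with capitals for GGGCGG (the GC box) and CCAAT on either strand.
Col4a2 to Col4a1 interval: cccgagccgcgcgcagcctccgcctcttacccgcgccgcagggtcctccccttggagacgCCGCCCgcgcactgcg
Col4a6: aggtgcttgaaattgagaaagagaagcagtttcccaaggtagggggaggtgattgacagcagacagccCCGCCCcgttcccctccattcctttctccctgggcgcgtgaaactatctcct
Frem2: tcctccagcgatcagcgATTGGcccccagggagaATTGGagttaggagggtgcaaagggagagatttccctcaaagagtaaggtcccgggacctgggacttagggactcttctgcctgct

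The collagen interval and the *Col4a6* stretch each hold 1 GC box, and the *Frem2* stretch holds 2 CCAAT motifs on the opposite strand. Of the 9 members analysed, 8 were matched to a RefSeq promoter. In the 250 bases before the start, searched on both strands, GGGCGG was found in 4 of 8 (30.5% of 33469 promoters), CCAAT in 4 of 8 (34.0%) and TATAAA in 0 of 8 (12.9%). AGGTCA, the half-site of thyroid hormone response elements, was found in 0 of 8 (14.1% of promoters). A direct repeat of this half-site with 4 bases between its copies was also found in 0 of 8 (0.00299%). The windows of *Col4a1* and *Col4a2* overlap, so the same GC box counts for both. G and C made up 75.2 and 74.4% of the bases in these 2 windows and 48% in that of *Col4a6* (median of all promoters, 51.2%).

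*Col4a1* and *Col4a2* had a Pearson's r of 0.94 and a Spearman's rho of 0.86 across the 13 pups (permutation tests, p = 0.00012 and 0.00037, and 0.00432 and 0.0133 when adjusted over 36 pairs), and r was 0.92 without the 2 farthest pups. No other row had a higher r with *Col4a1* than *Col4a2* did. *Col4a1* went with the endothelial score (r = 0.82, rho = 0.77; permutation p = 0.00129 and 0.005, and 0.0145 and 0.045 when adjusted over 45 relations), and r was 0.70 without the 2 farthest pups. *Col4a2* passed with no score: its r was 0.65 with the endothelial, 0.62 with the leptomeningeal and 0.61 with the choroid plexus score (adjusted permutation p = 0.155 for each), and the endothelial r was 0.42 without the 2 farthest pups. The correlations of the chains were not tested against each other. The endothelial score was higher by 0.16 in PTU exposed pups (exact permutation p = 0.124, adjusted p = 0.198), or by 0.36 under the common total (adjusted p = 0.389), with summed marker levels of 4868 to 6098 normalized counts in controls and 4596 to 5680 after exposure. Of 14 endothelial markers 11 were tested, and 9 had a higher and 2 a lower fitted level. The defining markers *Pecam1* and *Cdh5* were detected in every pup, with log2 fold changes of 0.24 and 0.27, and the single marker with an unadjusted p under 0.05, *Slco1c1*, had -0.27 (limma, adjusted p = 0.174). With this score as a covariate in limma, *Col4a1* and *Col4a2* had log2 fold changes of -0.25 and -0.26 in place of -0.11 and -0.14 (adjusted p = 0.331 and 0.342). With the choroid plexus score they had -0.016 and -0.00096, which is 13.6 and 0.67% of the values without a covariate.

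*Col4a6* went with the radial glia score (r = 0.84, rho = 0.85; permutation p = 0.00018 and 0.00013, and 0.0027 and 0.0036 when adjusted over 45 relations; r = 0.87 without the 2 farthest pups). The radial glia score was lower by 0.37 in PTU exposed pups (p = 0.00175 by two-sided exact permutation, and 0.014 when adjusted over 8 lists), although with 1 common total for all pups it was lower by 0.17 (adjusted p = 0.451), where the median of all rows was 0.20. With the total taken over rows other than the 3 highest it was lower by 0.36 (adjusted p = 0.00932), and with quantile and TMM scaling by 0.38 and 0.37 (adjusted p = 0.00932 and 0.014), all by exact permutation. All 11 of its transcripts had a lower fitted level, against 49.3% of all rows, and 10 did under the common total. Of the 11, 7 had an unadjusted p under 0.05 in limma, against 8.2% of all rows lower at that level. The summed levels were 88928 to 120014 normalized counts in controls and 72690 to 96739 in PTU exposed pups. With the radial glia score as a covariate, an alternative added after seeing the data, the log2 fold change of *Col4a6* turned to 0.032 ± 0.17 (SE). The score ran from -0.024 to 0.39 in controls and from -0.46 to 0.0031 in PTU exposed pups, so this fit separates score and exposure poorly. Over all rows, 609 had an unadjusted p under 0.05 in this limma fit, in place of 2383. The choroid plexus score as a covariate left -0.30, or 56.8%. The part of either cell type in the difference of *Col4a6* was not tested.

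**Figure D5:**
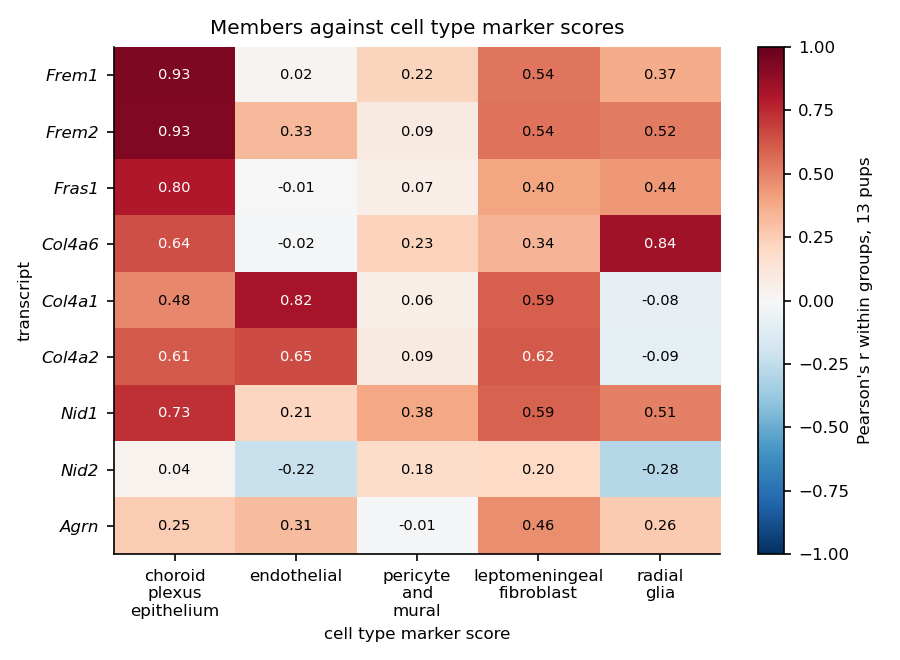
Pearson's r (colour and numbers) between each of the 9 transcripts (rows) and 5 cell type marker scores (columns) across the 13 pups, with both centred within groups. The Fraser complex transcripts are highest in the choroid plexus column, *Col4a1* in the endothelial and *Col4a6* in the radial glia column, while *Nid2* and *Agrn* stay below 0.5 in all 5.

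The nidogens link the laminin and collagen IV networks and can stand in for each other. *Nid1* (row ENSRNOT00000003349) ran from 4918 through 8676 to 11107 normalized counts in controls and from 4299 through 6673 to 7435 in PTU exposed pups. The highest PTU exposed pup lay below 5 of 7 controls, and 1 of 6 lay below the lowest control. The means were 8136 ± 2086 and 6297 ± 1284 (SD, n = 7 and n = 6), a log2 fold change of -0.35 ± 0.17 (SE; limma, adjusted p = 0.319), and without PTU pup 6 it was -0.25. *Nid2* (row ENSRNOT00000000383) ran from 708 through 906 to 1033 and from 523 through 768 to 839 normalized counts. All 6 PTU exposed pups lay below 5 of 7 controls. Its means of 881 ± 105 and 727 ± 127 gave a log2 fold change of -0.29 ± 0.12 (SE; limma, adjusted p = 0.268; unadjusted exact permutation p = 0.0408, two-sided).

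The nidogen transcripts had similar differences, but no shared variation among pups was seen. Their r within groups was -0.17 (rho = -0.17; permutation tests, adjusted p = 0.743 and 0.733 over 36 pairs). The log2 ratio of *Nid2* to *Nid1* differed by 0.06 between groups, with a wide interval from -0.51 to 0.63 (exact permutation test, adjusted p = 0.799). *Nid1* had an r of 0.73 with the choroid plexus score (permutation p = 0.00563, adjusted p = 0.0422) but a rho of 0.68 (p = 0.019, adjusted p = 0.119), and its r of 0.29 without the 2 farthest pups shows that the relation rests on those pups. With that score as a covariate its log2 fold change was -0.03, whereas that of *Nid2* was -0.28, or 96.5% of its value without the covariate. *Nid1* also varied with *Col4a6* (r = 0.84, adjusted permutation p = 0.016; rho = 0.60, adjusted p = 0.238; r = 0.73 without the 2 farthest pups), and with the radial glia score as a covariate its log2 fold change turned to 0.062.

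*Agrn* encodes the heparan sulfate proteoglycan that clusters acetylcholine receptors at the nerve-muscle junction and lies in vessel basement membranes of the brain. Its normalized counts (row ENSRNOT00000047854) ran from 7904 through 9184 to 11449 in controls and from 7803 through 9051 to 10086 in PTU exposed pups. The groups lay over each other, with 3 of 6 PTU exposed pups below the control mean. The means were 9351 ± 1063 and 9122 ± 890 (SD), and the 95% interval of the log2 fold change of -0.03 ran from -0.22 to 0.15, with turns to 0.17 under 1 common total for all pups and to 0.055 and 0.012 with the radial glia and choroid plexus scores as covariates. None of its relations with the 5 marker scores passed an adjusted p of 0.05.

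Around the members, 8 further lists of basement membrane genes were examined, and 0 of their transcripts had an adjusted p of at most 0.05. The counts of lower transcripts that follow depend on the scaling: with 1 common total for all pups they are smaller, while the counts below the median of all rows are then the same as those given. Among the receptors, 18 of 21 tested transcripts had a lower fitted level in PTU exposed pups (12 under the common total), 9 of them and 0 higher ones with an unadjusted p under 0.05 (8.2% of all rows lower and 8.11% higher, or 16.3% in either direction), with a median log2 fold change of -0.28. *Sdc2*, a cell surface heparan sulfate proteoglycan, averaged 2590 ± 480 and 1829 ± 217 normalized counts (SD, log2 fold change -0.48, adjusted p = 0.133 in limma). *Dag1*, which encodes dystroglycan, the receptor for laminin and agrin, averaged 9555 ± 771 and 7705 ± 838. The laminin receptor *Bcam* had a log2 fold change of -0.58 and the integrin chain *Itgb5* -0.40 (adjusted p = 0.18 and 0.175).

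Genes that process and export collagen IV were lower in 20 of 20 tested transcripts (11 under the common total), against 49.3% of all rows, and 6 of 20 had an unadjusted p under 0.05, against 8.2% lower at that level, at a median of -0.25. *Loxl1*, a lysyl oxidase that crosslinks matrix, averaged 1240 ± 324 and 755 ± 196 normalized counts (SD, log2 fold change -0.72, adjusted p = 0.133 in limma). *P4ha1* and *P3h1*, which hydroxylate prolines of collagen, had -0.29 and -0.46, and *Loxl4*, a low transcript with 86.5 ± 19.8 and 44.1 ± 26.0 normalized counts, had -1.29. Proteases and their inhibitors were lower in 18 of 21, or 11 under the common total, with 4 lower and 1 higher at p under 0.05 (8.2 and 8.11% of all rows) and a median of -0.21. They included the procollagen protease *Bmp1* at -0.45, the inhibitor *Timp1* at -0.83, the plasminogen activator *Plat* at -0.50 and the protease *Mmp24* at 0.43.

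Laminins were lower in 7 of 10 tested transcripts (5 under the common total), 4 with an unadjusted p under 0.05 and 0 higher ones (8.2 and 8.11% of all rows), at a median of -0.20. *Lamb2* averaged 2644 ± 483 and 2003 ± 338 normalized counts (SD, log2 fold change -0.40, adjusted p = 0.167 in limma), and *Lamc1*, *Lama5* and *Lama3* had -0.27, -0.48 and -0.45. Of the 6 Fraser complex partners, 4 were lower, or 3 under the common total (1 lower and 0 higher of 6 with p under 0.05, against the same shares of all rows, median -0.32). Nephronectin (*Npnt*), the ligand of the integrin *Itga8*, had 1055 ± 219 and 760 ± 156 normalized counts (log2 fold change -0.47, adjusted p = 0.174), while *Itga8* itself had -0.62, *Grip1*, which carries the complex to the membrane, 0.17, and *Vwa2* 0.37 (adjusted p = 0.438, 0.432 and 0.482).

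The other lists lay closer to 0. Minor basement membrane proteins were lower in 8 of 14, or 6 under the common total (3 lower and 1 higher with p under 0.05, against 8.2 and 8.11% of all rows, median -0.10), with log2 fold changes of -0.65 for *Tinagl1*, -0.33 for *Hmcn1*, -0.33 for *Fbln2* and 0.36 for *Vwa1*. Genes that make and edit heparan sulfate, the sugar chain of perlecan and agrin, were lower in 13 of 22, or 5 under the common total (3 lower and 0 higher with p under 0.05, median -0.06), near the 49.3% of all rows that were lower and the 16.3% with such a p in either direction. The first enzymes of the chain, *Xylt1* and *Xylt2*, had -0.23 and -0.29, *B3gat3* -0.25 and *Hs3st1* -0.29. Of the other collagen IV, XV and XVIII chains, 3 of 5 were tested, 2 were lower (0 under the common total) and 0 had a p under 0.05: *Col4a3*, *Col15a1* and *Col18a1* had log2 fold changes of -0.09, 0.15 and -0.14, and *Col4a4* and *Col4a5* are not analysed here.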

How the data were processed

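RNA of the laser captured VZ was sequenced from 7 control and 6 PTU exposed pups. The authors trimmed reads with Trimmomatic, used STAR 2.7.8a for alignment to mRatBN7.2 (rn7) and the E/M model of Partek for counting, and applied median ratio scaling, so the deposited normalized counts are a signal that is never negative and not raw counts. The deposited table also holds the authors' DESeq2 comparison (p-value, FDR, ratio, log2 ratio and fold change), which was not used. Between 88.9 and 90.5% of values from 20 to 150 were whole multiples of 1 read (tolerance 0.05 read), short of the 95% set as the minimum, so no count model was run, and estimated reads per pup are approximate. Groups came from the sample labels, and p-values measure the spread among pups of different litters.

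For each gene the row with the highest mean was used. Rows averaging at least 10 were taken as log2(normalized count + 1), which understates differences of low rows, and compared over all rows with limma 3.58.1 in R 4.3.3 (variance trend, Benjamini-Hochberg adjustment over 14606 rows, threshold 0.05). Ratios and marker scores were compared by exact permutation over all 1716 regroupings (smallest p 0.00117), and correlations by 100000 permutations of values centred within groups. Other steps ran in Python 3.11.15 with scipy 1.17.1, pandas 2.3.3, numpy 2.4.6 and matplotlib 3.10.9. The members and gene lists were chosen with earlier results of these data known. All members are named, and from each pathway list the 4 transcripts with the smallest p (3 where only 3 were tested). In a test on simulated data built from the real rows, limma recovered 18, 43, 47 and 50 of 50 rows with log2 changes of 0.5, 1, 2 and 4, and 10 of 14406 unchanged rows were called. Sequences are RefSeq (GRCr8), with no coordinates carried over to mRatBN7.2. The alternatives were other scalings, pseudocounts, filters and variance models, array weights, marker scores as covariates, a replicate block and each pup left out. The radial glia covariate and the joint omission of control pup 6 and PTU pup 6 were added after seeing the data. The planned ratio of *Agrn* to *Hspg2* was not analysed here.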

Additional observations from a re-analysis of the deposited data

Results flagged for a closer look

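*Col4a2* in control pup 6 lay far below the other controls: 11.53 on the log2 scale against 11.90 in the nearest control, a gap of 0.577 of the range of all 7 controls. It was the only such gap among 44 groups of values examined, where chance gives about 2.2 (1 in 20). Control pup 6 was also the lowest control in *Frem1*, *Frem2*, *Fras1*, *Nid1*, *Col4a1* and *Col4a6*. Its choroid plexus score of -0.72, endothelial score of -0.32 and leptomeningeal score of -0.72 were also the lowest among controls, whose other choroid plexus scores ran from 0.049 to 0.77, and the part of this in the members' values was not tested. Without control pup 6, the log2 fold change of *Col4a2* was -0.20.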

How the results depend on the processing

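No member passed an adjusted p of 0.05 in limma in any of the 30 alternatives, where the smallest adjusted p was 0.0595. *Frem1*, *Frem2*, *Fras1* and *Nid2* stayed lower in all 30, though under 1 common total for all pups *Nid2*, *Fras1* and *Frem2* had -0.086, -0.18 and -0.24, and *Nid1* and *Col4a6* -0.15 and -0.33. With 1 common total for all pups, *Agrn*, *Col4a1* and *Col4a2* turned to 0.17, 0.087 and 0.059, the radial glia score was -0.17, the mural, leptomeningeal, microglia, endothelial and ependymal scores were 0.21, 0.20, 0.21, 0.36 and -0.21, and rows with an unadjusted p under 0.05 split into 1584 higher and 81 lower, in place of 1185 and 1198; the median of all rows was then 0.20. With the total over rows other than the 3 highest, every member stayed lower. The radial glia score as a covariate turned *Agrn*, *Nid1* and *Col4a6* to 0.055, 0.062 and 0.032, and the choroid plexus score turned *Agrn* to 0.012. The number of rows called was 40 with array weights, 4 with the choroid plexus covariate and 18 with the replicate block. Leaving out 1 pup gave 0 to 179 rows called (7 without control pup 6, and 179, or 1.23%, without PTU pup 2), and the range was -0.073 to 0.016 for *Agrn*, -0.52 to -0.30 for the ratio of *Col4a6* to *Col4a1*, -0.49 to -0.28 for *Col4a6* to *Col4a2*, -0.069 to 0.20 for *Nid2* to *Nid1* and -0.13 to 0.0097 for *Frem2* to *Fras1*. It was -0.032 to 0.041 for the mural score, -0.23 to 0.19 for the leptomeningeal and -0.034 to 0.065 for the microglia score, and 0.38 to 0.78 for the neuron score. The mural score was also -0.0014 with quantile normalization and -0.0021 with a pseudocount of 10, and the leptomeningeal score -0.0049 and -0.0074, and -0.0039 with TMM factors. Without control pup 6 and PTU pup 6 together, *Frem1* was -0.56 and *Col4a6* -0.49. The causes were not tested.

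Replicate numbers come from the labels and belong to different litters. The correlation of same-numbered pups ran from -0.07 to 0.20 and passed 0.1 in 4 of 6 pairs, and 1 of 6 pups correlated best with its own number. A pairing by number was thus not shown, and its absence was not tested. With the replicate block, *Frem1* and *Col4a6* had adjusted p of 0.0595 and 0.0631 in limma. The ratio of *Col4a6* to *Col4a1* then differed by -0.44 (adjusted p = 0.156, exact permutation within the 6 pairs). In every pair this ratio was lower in the PTU exposed pup, so its unadjusted p was the smallest that test can give. With so few regroupings the ratio could not have passed the threshold on its own, and no conclusion is drawn from its adjusted p.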

Other observations

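The neuron score was higher by 0.63 in PTU exposed pups (p = 0.0927 by two-sided exact permutation, and 0.185 when adjusted over 8 lists), with 10 of 10 transcripts higher and 5 of them at an unadjusted p under 0.05 (8.11% of all rows were higher at that level), and it was 0.38 without PTU pup 1. The relation of the neuron, ependymal and microglia scores to the members was not tested. The ependymal score was lower by 0.42 (exact permutation p = 0.067, adjusted p = 0.179), with 5 of 6 transcripts lower, 4 of them at p under 0.05 (8.2% of all rows lower). With 1 common total for all pups, which moved the median of all rows to 0.20, it was lower by 0.21 (adjusted p = 0.451) with 4 of 6 transcripts lower, and the neuron score was higher by 0.83 (adjusted p = 0.389). The mural, leptomeningeal and microglia scores differed by 0.01, 0.00 and 0.01 (exact permutation tests, adjusted p = 0.999 for each). Of their transcripts, 6 of 11, 7 of 9 and 2 of 7 were lower, against 49.3% of all rows. Among these, 2, 0 and 1 had an unadjusted p under 0.05 (8.2% of all rows lower). The mural marker *Cspg4* was higher at that level, at 0.36 (8.11% of all rows higher). Under the common total 3, 4 and 1 transcripts were lower, and the mural, leptomeningeal and microglia scores were 0.21, 0.20 and 0.21.

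The r of *Nid2* with the 5 marker scores ran from -0.28 with radial glia to 0.20 with leptomeningeal fibroblasts, and with the radial glia score as a covariate its log2 fold change was -0.43, while those of *Nid1* and *Col4a6* were 0.062 and 0.032. The r of *Nid2* with *Agrn* was 0.22 (permutation test, adjusted p = 0.629 over 36 pairs; rho = 0.41, adjusted p = 0.414), and 0.85 without the 2 farthest pups. *Agrn* had a rho of 0.76 with the leptomeningeal score (permutation test, adjusted p = 0.062 over 45 relations) and an r of 0.46.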
